A study of Mus musculus with 8 samples.

Results

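The 10 genes described here make up the core of the circadian clock, and all 10 were present among the 13725 genes of the deposited table: Npas2, Arntl and Clock of the activating, positive limb, and Per1, Per2, Per3, Cry1, Cry2, Nr1d1 and Nr1d2 of the repressing, negative limb. They were listed by name, and the list was drawn up because Npas2 had stood out in the comparison of PAHSA with vehicle in an earlier analysis of the same libraries. Differences of these 10 genes between the groups are therefore given as a description, with no test. The SE and interval beside them come from the limma fit and describe spread between libraries. That fit pools both groups and draws the variance of each gene toward that of genes at a similar level. RNA came from pancreatic islets of female NOD mice aged 10 weeks, a strain that develops autoimmune diabetes. All mice shared this genotype, sex and age, and 4 libraries came from animals given vehicle and 4 from animals given PAHSA (written PASHA in the sample labels), lipids in which palmitic acid is esterified to a hydroxystearic acid. The protocol speaks of islets pooled from 2 mice, whereas the design text counts 4 animals in each arm, so that the spread between libraries may be that between animals or between pools. The sources used here give no dose, no duration and no hour at which islets were taken. Vehicle replicates are numbered 1, 3, 4 and 5 and PAHSA replicates 1, 2, 3 and 4.

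The clock is a feedback loop of transcription that runs in most cells with a period of about a day. CLOCK or its close relative NPAS2 pairs with BMAL1, the product of Arntl, binds E-box sequences and switches on the Per and Cry genes, whose proteins return to the nucleus and block that pair. The same pair also switches on Nr1d1 and Nr1d2, which encode the REV-ERB receptors. These repress Arntl and Npas2 through elements they share with the activating ROR receptors. In islets the loop is known to time insulin secretion, and mice without BMAL1 in beta cells lose much of their glucose-stimulated secretion.

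Levels are log2 CPM, counts scaled to library size by the authors (CPM) as a logarithm to base 2, and differences are PAHSA minus vehicle on that scale. Libraries held between 34461742 and 45236238 estimated counts. Hormone genes of islets were abundant, as the label implies: the 7 beta cell markers together took 13.6% to 17.8% of CPM in vehicle and 14.0% to 17.4% in PAHSA, and the 5 alpha cell markers 6.08% to 6.96% and 6.67% to 8.09%. Acinar cell markers, products of the exocrine tissue around islets, were all 21 in the table and varied most. They summed to 12281.5 to 48768 CPM in vehicle and to 547 (replicate 4) to 18615 CPM in PAHSA. The 12 stellate cell, fibroblast and pericyte markers summed to 85.9 to 322 CPM in vehicle and to 43.0 to 150 CPM in PAHSA. Ptf1a in the acinar list and Lum in the stellate list were at the lowest value of at least 1 library. Duct cell markers (9 of 10 in the table) summed to 4244 to 6178.5 CPM in vehicle and to 3472 to 4435 CPM in PAHSA. All 5 delta and PP cell markers were in the table and summed to 7647 to 9754 CPM in vehicle and to 6780 to 8563 CPM in PAHSA. Of the other lists, the table held 4 of 8 endothelial, 3 of 10 macrophage and dendritic and 2 of 13 T, NK and B cell markers. It also held 2 of 5 Schwann and 0 of 3 red blood cell markers. The endothelial markers summed to 37.4 to 77.9 CPM in vehicle and 36.9 to 50.8 in PAHSA, and the macrophage and dendritic markers to 184 to 428 and 138 to 278. Lymphocyte markers summed to at most 2.44 CPM and Schwann cell markers to at most 4.29 CPM in any library, with Cd8a at the lowest value in at least 1 of them.

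Npas2, the alternative partner of BMAL1, was the positive limb gene that set the groups apart. It is the protein-coding gene ENSMUSG00000026077 at chr1:39193731-39363236 on the plus strand (GENCODE M21, GRCm38). Its level was 4.33, 4.21, 3.38 and 5.01 log2 CPM in vehicle replicates 1, 3, 4 and 5, and 2.67, 1.53, 1.09 and 2.00 log2 CPM in the PAHSA group (replicates 1, 2, 3 and 4). The groups did not overlap: the highest PAHSA library, replicate 1, lay 0.71 below the lowest vehicle library, replicate 4. The group means were 4.23 ± 0.67 and 1.82 ± 0.68 (SD, n = 4), a difference of -2.41 (SE 0.44, 95% confidence interval -3.40 to -1.43), or a level 5.32-fold higher in vehicle. These values rested on 377 to 1456 estimated counts in vehicle and 84 to 232 in PAHSA. In bulk RNA, fewer cells of a type that express Npas2 and less Npas2 RNA per cell cannot be told apart.

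Of the 10 genes, Npas2 alone had groups that did not overlap, with PAHSA lower. Over the 12231 genes tested, 1.95% had such a separation with PAHSA lower, 2.06% with PAHSA higher and 4.01% in either direction. As the gene was chosen on this contrast, nothing was read from that count. By limma's test with Benjamini-Hochberg adjustment, 0% of all 12231 genes passed an adjusted p of 0.05, and 894 genes, 7.31%, had an unadjusted p under 0.05. Acinar markers summed to 12281.5, 12726, 48768 and 30617 CPM in the vehicle group (replicates 1, 3, 4 and 5). In the PAHSA group (replicates 1, 2, 3 and 4) they summed to 4340, 18615, 11382 and 547 CPM. With the acinar marker mean as a covariate the Npas2 difference was -2.77, with the stellate marker mean -2.71, and without PAHSA replicate 4 it was -2.47.

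Arntl, which encodes BMAL1, was far closer between the groups. The gene (ENSMUSG00000055116) lies at chr7:113207465-113314126 on the plus strand. It stood at 4.33, 4.50, 5.13 and 4.69 log2 CPM in vehicle replicates 1, 3, 4 and 5 and at 3.97, 4.70, 3.95 and 4.70 log2 CPM in the PAHSA group (replicates 1, 2, 3 and 4). PAHSA replicates 1 and 3 were below every vehicle library, whereas replicates 2 and 4 lay inside the vehicle range. The difference was -0.34 (SE 0.26, 95% confidence interval -0.92 to 0.25), and -0.18 without vehicle replicate 4, -0.22 without PAHSA replicate 1 and -0.21 without PAHSA replicate 3.

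Clock (ENSMUSG00000029238, chr5:76209868-76304792, minus strand), the partner that NPAS2 can replace, was at 5.90, 5.71, 5.51 and 6.23 log2 CPM in vehicle replicates 1, 3, 4 and 5 and at 5.88, 5.53, 5.96 and 6.38 log2 CPM in the PAHSA group (replicates 1, 2, 3 and 4). The groups overlapped through most of their range. Its difference of 0.10 (SE 0.21, 95% confidence interval -0.36 to 0.56) changed sign in 3 of 18 alternative fits, those with the acinar covariate (-0.19), without vehicle replicate 4 (-0.01) and without PAHSA replicate 4 (-0.05). Alternatives that changed only the filter or the variance settings left differences as they were, so no sign could change in them.

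**Figure D1:**
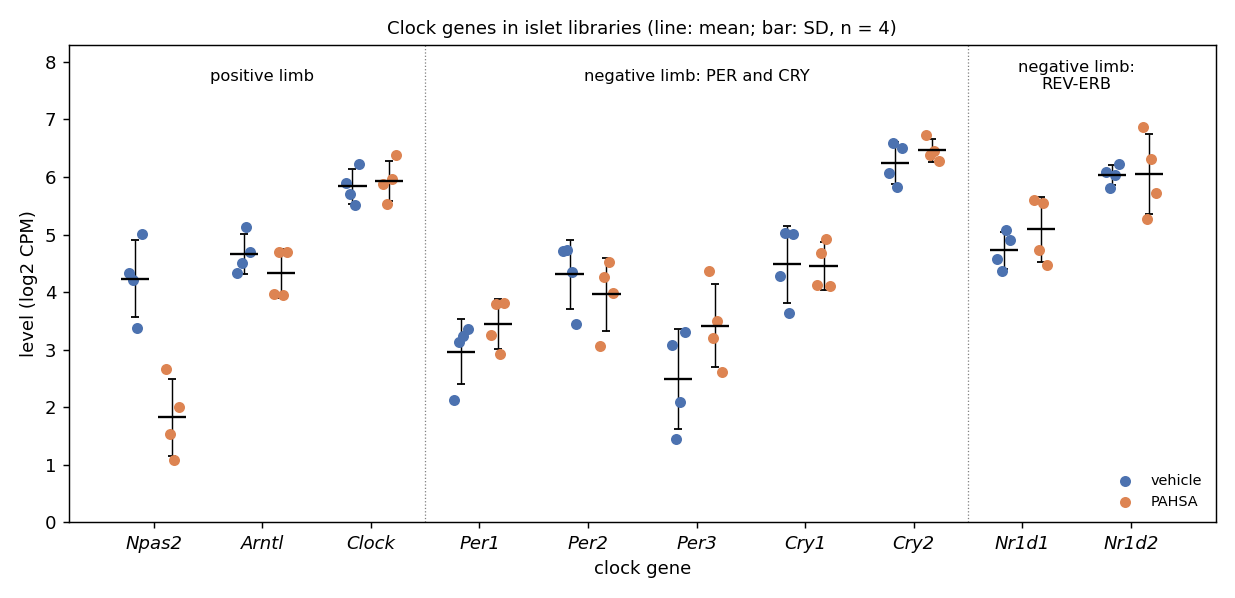
Level of each clock gene (log2 CPM, vertical axis) in the 4 vehicle and the 4 PAHSA libraries (points), with the group mean (line) and SD (bar, n = 4), by limb of the clock. For Npas2 the PAHSA points, 1.09 to 2.67, lie below all vehicle points, 3.38 to 5.01. For the other 9 genes the groups overlap.

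Setting the pair of interchangeable partners against each other inside a library removes the scaling between libraries. Clock exceeded Npas2 by 1.57, 1.50, 2.13 and 1.22 on the log2 CPM scale in vehicle replicates 1, 3, 4 and 5, and by 3.21, 4.01, 4.87 and 4.38 in PAHSA replicates 1, 2, 3 and 4. No vehicle library reached the lowest PAHSA value. Per kb of exon (merged GENCODE exons, 4.791 kb for Npas2 and 13.727 kb for Clock), Npas2 made up 48.6% ± 6.52 of the sum of Npas2 and Clock in vehicle libraries (SD, n = 4) and 14.9% ± 6.32 in the PAHSA libraries. The share ranged from 39.6% to 55.1% in vehicle and from 8.94% to 23.6% in PAHSA. Per kb of merged exon, the RNAs of both partners were at about the same level in vehicle libraries, and Clock made up most in PAHSA libraries. Merged exons cover all annotated isoforms, and the lengths of the transcripts present were not measured, so the near-equality in vehicle depends on the lengths used.

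**Figure D2:**
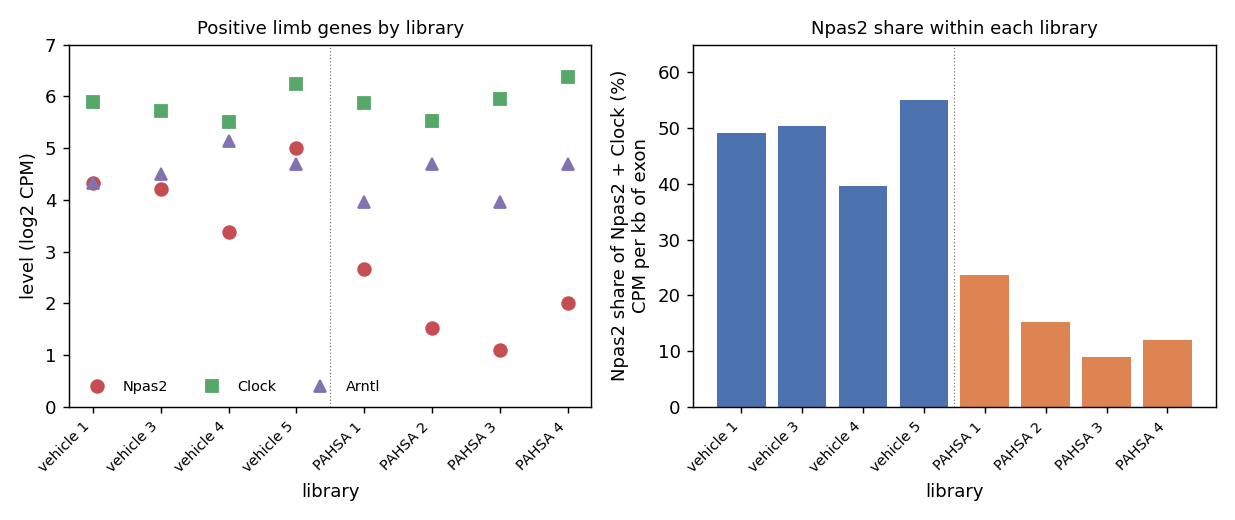
Left, level of Npas2, Clock and Arntl (log2 CPM, not per length) in each of the 8 libraries. Right, CPM per kb of Npas2 as a percentage of Npas2 plus Clock, which is 39.6% to 55.1% in the vehicle bars and 8.94% to 23.6% in the PAHSA bars.

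Over all 10 genes, the order of levels per kb of exon was the same in both groups for the most abundant members and differed in the place of Npas2. In vehicle, mean CPM per kb was 12.3 for Cry2, 12.2 for Nr1d2, 8.78 for Nr1d1, 7.22 for Cry1, 4.24 for Npas2, 4.24 for Clock, 3.58 for Per2, 3.45 for Arntl, 1.46 for Per1 and 0.662 for Per3. Of the neighbours in that order, Arntl and Per1 alone had ranges over the 4 libraries that did not overlap. In PAHSA, Npas2 was last at 0.801 ± 0.384 CPM per kb (SD, n = 4), after Per3 at 1.23 ± 0.644, and the ranges of all neighbours overlapped.

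Stretches before a RefSeq transcription start are shown for Npas2 and Arntl, positive limb genes that differed in their group differences. They are also shown for Cry1 and Per3, whose windows held clock motifs. The Npas2 stretch lies inside the GENCODE gene, which begins at chr1:39193731, and so precedes a later start of that gene. RefSeq windows on GRCm38.p6, from 250 bases before to 50 after each start, were matched for 9 of the 10 genes (all but Per2), in 13 windows. Both strands were searched for the E-box (CACGTG), the D-box (TTATGTAA or TTACGTAA), the ROR element (TAGGTCA or TGGGTCA), which REV-ERB receptors also bind, and the cAMP response element (TGACGTCA). Matches are in capitals, and the 4 searched motifs did not overlap in the stretches shown. Bases within annotated exons were left off, apart from the short Arntl site. The lines hold chr1:39194022-39194211 (plus strand) for Npas2, chr7:113207215-113207464 (plus strand) for Arntl, chr7:113207531-113207557 (plus strand) for the Arntl site, chr10:85185065-85185304 (minus strand) for Cry1 and chr4:151044666-151044915 (minus strand) for Per3, each 5′ to 3′.
Npas2: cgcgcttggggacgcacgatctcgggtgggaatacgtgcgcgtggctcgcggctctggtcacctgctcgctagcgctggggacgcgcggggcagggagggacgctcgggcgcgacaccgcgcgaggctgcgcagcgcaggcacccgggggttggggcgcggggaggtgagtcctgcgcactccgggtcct
Arntl: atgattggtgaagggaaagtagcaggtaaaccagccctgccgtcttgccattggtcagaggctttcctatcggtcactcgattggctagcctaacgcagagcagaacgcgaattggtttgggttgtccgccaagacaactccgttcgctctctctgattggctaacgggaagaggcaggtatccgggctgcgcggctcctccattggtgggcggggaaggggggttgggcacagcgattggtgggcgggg
Arntl site: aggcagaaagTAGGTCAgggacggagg
Cry1: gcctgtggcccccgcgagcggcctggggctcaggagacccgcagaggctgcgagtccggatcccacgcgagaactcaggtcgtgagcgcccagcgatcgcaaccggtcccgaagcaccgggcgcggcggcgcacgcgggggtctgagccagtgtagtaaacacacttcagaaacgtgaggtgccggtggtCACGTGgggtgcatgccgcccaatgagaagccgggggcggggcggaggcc
Per3: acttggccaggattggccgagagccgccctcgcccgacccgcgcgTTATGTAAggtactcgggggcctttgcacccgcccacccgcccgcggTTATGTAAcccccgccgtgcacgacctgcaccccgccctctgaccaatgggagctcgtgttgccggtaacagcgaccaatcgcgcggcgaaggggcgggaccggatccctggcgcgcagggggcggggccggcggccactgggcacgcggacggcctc

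The Per3 window held the D-box letters at 2 places, 205 and 158 bases before the start, whereas 1.06% of all 32851 windows held them at all. An E-box lay 60 bases before the start of Cry1 and another 166 bases before a start of Per1, against 7.15% of all windows. The Arntl site with the ROR element starts 31 bases after the second of its starts, and 6.45% of all windows held such letters. The cAMP response element, found in 1.79% of all windows, was in none of the members' windows. No searched letters were found in the windows of Npas2, Clock, Cry2, Nr1d1 and Nr1d2. These are matches of letters and not measured binding.

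Among the Per genes, which encode the rhythmic repressors that carry CRY proteins into the nucleus, Per1 and Per3 were higher on average in PAHSA and Per2 was lower, with overlap in each. Per1, which hormones and cAMP can also induce within minutes to hours, was at 2.12, 3.13, 3.24 and 3.36 log2 CPM in vehicle replicates 1, 3, 4 and 5 and at 3.25, 3.79, 2.93 and 3.81 log2 CPM in the PAHSA group (replicates 1, 2, 3 and 4). Vehicle replicate 1 was the low library, and the difference of 0.48 (SE 0.37) was 0.20 without it and 0.13 with the stellate marker mean as a covariate. Per3 was at 3.09, 1.44, 2.10 and 3.31 log2 CPM in vehicle and at 4.36, 3.21, 3.50 and 2.61 log2 CPM in PAHSA, in the same order of replicates. PAHSA replicates 1 and 3 lay above all vehicle libraries and the other two inside their range. The Per3 difference was 0.93 (SE 0.51, 95% confidence interval -0.18 to 2.05), with 0.59 without vehicle replicate 3, 0.62 without PAHSA replicate 1 and 0.09 with the stellate covariate.

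Per2 went from 3.44 to 4.73 log2 CPM in vehicle, where replicate 5 was lowest, and from 3.07 to 4.52 in PAHSA, where replicate 1 was lowest and replicate 3 highest. Its difference of -0.35 (SE 0.38) was -0.21 without vehicle replicate 1 or 3, -0.64 without vehicle replicate 5 and -0.05 without PAHSA replicate 1. The Per2 difference was -0.53 without PAHSA replicate 3 and 0.60 with the stellate covariate. With the replicate number as a block, a fit that rests on 3 pairs, it was -0.74.

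The cryptochromes, the main repressors of the CLOCK and BMAL1 pair, stayed close between the groups. Cry1 ranged from 3.63 (replicate 4) to 5.03 log2 CPM in vehicle and from 4.10 to 4.93 in PAHSA, a difference of -0.03 (SE 0.34) whose sign changed in 7 of 18 alternative fits, among them the rescaling of each library to the same sum. For Cry2 the ranges were 5.83 to 6.60 and 6.28 to 6.73 log2 CPM, a difference of 0.21 (SE 0.18, 95% confidence interval -0.19 to 0.62). The Cry2 difference was 0.07 without vehicle replicate 4, 0.33 without vehicle replicate 3, 0.12 without PAHSA replicate 1 and 0.04 with the stellate covariate. The interval of Cry1 ran from -0.77 to 0.72.

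The REV-ERB genes divided the PAHSA libraries. Nr1d1 (ENSMUSG00000020889, chr11:98767932-98775333, minus strand), which encodes REV-ERB alpha, was at 4.57, 4.36, 5.08 and 4.90 log2 CPM in vehicle replicates 1, 3, 4 and 5 and at 5.60, 4.73, 5.54 and 4.48 log2 CPM in the PAHSA group (replicates 1, 2, 3 and 4). Nr1d2, which encodes REV-ERB beta, was at 6.09, 5.81, 6.03 and 6.22 log2 CPM in the vehicle libraries and at 6.87, 5.27, 6.32 and 5.73 log2 CPM in the PAHSA libraries, in the same order. For both genes PAHSA replicates 1 and 3 were above all vehicle libraries. PAHSA replicates 2 and 4 were below all vehicle libraries for Nr1d2 and within their range for Nr1d1. The same replicates 1 and 3 had the lowest Arntl of all 8 libraries, so Nr1d1 exceeded Arntl by 1.63 and 1.59 on the log2 CPM scale in them, against 0.04 and -0.22 in PAHSA replicates 2 and 4 and -0.13 to 0.24 in vehicle.

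Group means of the REV-ERB genes hid this split. The difference was 0.36 (SE 0.28) for Nr1d1 and 0.01 (SE 0.29) for Nr1d2, while the SD of Nr1d2 was 0.70 in PAHSA and 0.17 in vehicle (n = 4). The Nr1d1 difference was 0.24 without vehicle replicate 3, 0.19 without PAHSA replicate 1, 0.21 without PAHSA replicate 3, 0.56 without PAHSA replicate 4 and 0.68 with the acinar covariate. The sign of Nr1d1 changed with the stellate marker mean as a covariate (-0.39), and that of Nr1d2 in 5 of 18 alternative fits, with -0.27 without PAHSA replicate 1. Npas2 did not follow the split: PAHSA replicate 1 had the highest and replicate 3 the lowest Npas2 of that group. The split was not particular to the REV-ERB genes and Arntl. Per3 and Cry2 were also higher, and Per1 lower, in PAHSA replicates 1 and 3 than in replicates 2 and 4. Clock, Per2 and Cry1 did not divide these libraries in this way. The share of all genes that divide them so was not counted. Stellate markers summed to 43.0 and 96.0 CPM in PAHSA replicates 1 and 3 and to 135 and 150 CPM in replicates 2 and 4. Vehicle replicate 5 had 85.9 CPM of them, with Nr1d1 at 4.90 and Nr1d2 at 6.22. Other marker lists divided the same PAHSA libraries, such as macrophage and dendritic markers (138 and 188 against 239 and 278 CPM). Delta and PP cell markers divided them the other way (8563 and 8114 against 7148 and 6780 CPM). Acinar and alpha cell markers did not divide them. The part of cell types in the split was not tested. Nr1d1 shares 263 exonic bases with Thra on the other strand, which the library kit does not tell apart; Thra was at 1.75 to 3.06 log2 CPM over the 8 libraries.

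**Figure D3:**
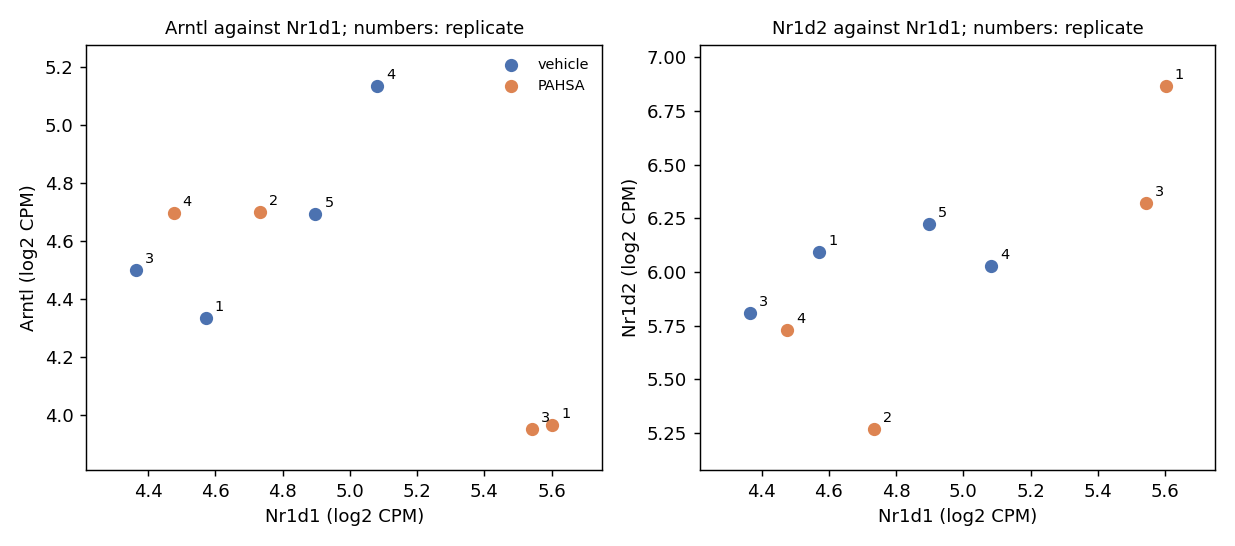
Level of Arntl (left) and of Nr1d2 (right) against that of Nr1d1, in log2 CPM, in each library, with the replicate number beside each point. PAHSA replicates 1 and 3 stand apart with Nr1d1 at 5.60 and 5.54 and Arntl at 3.97 and 3.95.

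Across the 7 negative limb genes, 5 were higher and 2 lower in PAHSA, with a median difference of 0.21, beside a median of -0.006 over all 12231 genes tested. The groups overlapped in each of the 7.

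Other genes of the pathway were taken from 4 lists chosen by role: 19 regulators of the clock, 11 output genes, 12 further members of the bHLH-PAS family to which NPAS2, CLOCK and BMAL1 belong, and 15 genes induced by, or reporting on, the signals that induce Per1. Of these 57 genes 54 were in the table and 48 were tested. In limma 0 of the 48 passed an adjusted p of 0.05 in either direction. At an unadjusted p under 0.05, 8 were lower and 0 higher in PAHSA, beside 4.29% and 3.02% of all genes tested. The 48 genes had a median difference of -0.07, with 28 lower and 20 higher.

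Of the 17 clock regulators tested, 9 were higher and 8 lower (median 0.04). Bhlhe40, an E-box repressor also known as DEC1 and an early gene of many stimuli, was at 6.98, 7.03, 6.66 and 6.96 log2 CPM in vehicle replicates 1, 3, 4 and 5 and at 5.58, 6.65, 6.46 and 6.30 log2 CPM in the PAHSA group (replicates 1, 2, 3 and 4). The groups were apart by only 0.003, between vehicle replicate 4 and PAHSA replicate 2. Its difference was -0.66 (SE 0.21; limma adjusted p = 0.671), -0.43 without PAHSA replicate 1 and -0.31 with the stellate covariate. Its relative Bhlhe41, or DEC2, differed by 0.04 (SE 0.19), with a sign that changed with the libraries used.

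Rora, the ROR receptor that activates Arntl from the element REV-ERB represses, was at 6.17, 5.09, 6.14 and 5.65 log2 CPM in the PAHSA group (replicates 1, 2, 3 and 4), beside a vehicle range of 5.08 to 5.65. Replicates 1 and 3, the libraries with high Nr1d1 and Nr1d2, lay well above that range, replicate 4 only just above its top and replicate 2 within it. The group difference was 0.37 (SE 0.24; limma adjusted p = 0.761), with 0.23 without PAHSA replicate 1, 0.59 without PAHSA replicate 2, 0.24 without PAHSA replicate 3 and 0.10 with the stellate covariate. Nfil3, a D-box repressor, differed by 0.04 (SE 0.22) and Ciart, a repressor of the BMAL1 pair, by 0.15 (SE 0.39), both with signs that changed between alternatives. Nono, a PER-binding RNA and DNA binding protein gene, differed by -0.30 (SE 0.13), with groups that overlapped and 3 PAHSA libraries below all vehicle libraries, and by -0.16 with the acinar covariate.

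Among the 11 output genes 5 were higher and 6 lower (median -0.08). The D-box activators Dbp and Tef are direct targets of the CLOCK and BMAL1 or NPAS2 and BMAL1 pair. Dbp was at 4.54, 3.40, 3.98 and 3.64 log2 CPM in vehicle replicates 1, 3, 4 and 5 and at 4.48, 4.32, 4.68 and 3.88 log2 CPM in the PAHSA group (replicates 1, 2, 3 and 4), a difference of 0.45 (SE 0.29; limma adjusted p = 0.760). Vehicle replicates 1 and 4 overlapped with the PAHSA libraries, and the difference was 0.29 without vehicle replicate 3. Tef ranged from 4.35 to 5.48 log2 CPM in vehicle and from 4.41 to 5.97 in PAHSA, with PAHSA replicates 1, 2 and 3 above all vehicle libraries and replicate 4 near the bottom, a difference of 0.42 (SE 0.36). That difference was 0.18 without vehicle replicate 4, 0.26 without PAHSA replicate 1, 0.78 without PAHSA replicate 4, 0.13 with the stellate covariate and 0.82 with the acinar covariate.

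Noct, a rhythmic enzyme gene also known as nocturnin, was at 7.35 to 7.59 log2 CPM in vehicle and 6.82 to 7.32 in PAHSA, groups apart by 0.03. The difference was -0.34 (SE 0.13; limma adjusted p = 0.671) and -0.09 with the stellate marker mean as a covariate. Lonrf3 differed by 0.86 (SE 0.61), with overlap, and by 0.56 without vehicle replicate 4.

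In the bHLH-PAS family outside the clock, 6 of 12 genes were tested, 5 of them lower and 1 higher (median -0.36). Sim1, known as a transcription factor gene of the hypothalamus, was at 4.14, 3.17, 3.21 and 4.08 log2 CPM in vehicle replicates 1, 3, 4 and 5 and at 1.37, 2.58, 1.97 and 3.22 log2 CPM in the PAHSA group (replicates 1, 2, 3 and 4). PAHSA replicate 4 reached into the vehicle range, and the difference was -1.36 (SE 0.45; limma adjusted p = 0.671), or -0.66 with the stellate covariate. Epas1, which encodes the hypoxia factor HIF-2 alpha and is abundant in endothelial and stromal cells, was at 2.93 to 4.04 log2 CPM in vehicle and at 1.17, 2.40, 2.69 and -3.99 log2 CPM in the PAHSA group (replicates 1, 2, 3 and 4). The last of these libraries decided much of its difference of -2.81 (SE 1.24), which was -1.29 without PAHSA replicate 4, -0.23 with the acinar covariate, -4.56 with the stellate covariate and -1.68 on the log2(CPM + 1) scale. Arnt2, a general dimer partner, differed by -0.32 (SE 0.22), and by -0.17 without PAHSA replicate 2 and -0.56 with the stellate covariate. With the replicate number as a block, resting on 3 pairs, the Arnt2 difference was -0.08.

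Of 14 tested genes that induce Per1 or are induced with it, 9 were lower and 5 higher (median -0.05). Sik1, a kinase gene switched on by cAMP and known to limit clock resetting, was at 4.61, 4.85, 4.73 and 5.02 log2 CPM in vehicle replicates 1, 3, 4 and 5 and at 3.02, 3.92, 3.28 and 4.81 log2 CPM in the PAHSA group (replicates 1, 2, 3 and 4). Replicate 4 alone of the PAHSA libraries lay in the vehicle range. Its difference was -1.04 (SE 0.35; limma adjusted p = 0.671), and -0.55 with the stellate covariate. Crem, a cAMP-responsive transcription factor gene, differed by -0.48 (SE 0.19) and Junb, an early response gene, by -0.34 (SE 0.14; -0.20 without PAHSA replicate 1 and 0.04 with the stellate covariate). Per1 itself was on the higher side in PAHSA.

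**Figure D4:**
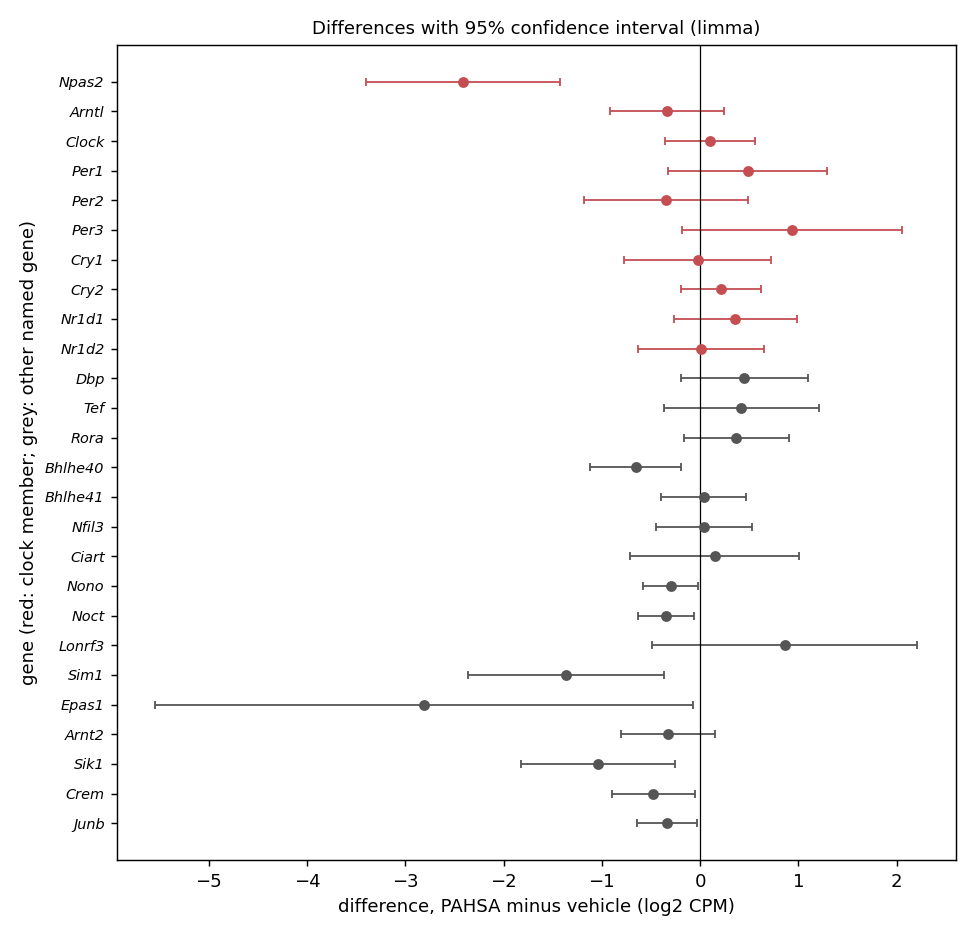
Difference between the group means (PAHSA minus vehicle, log2 CPM, horizontal axis) with its 95% confidence interval from limma, for the 10 clock genes (red) and the 16 other named genes (grey). The differences of the clock genes run from -2.41 for Npas2 to 0.93 for Per3. Intervals are not adjusted for the number of genes, and are no test of the clock genes.

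Likeness to Npas2 was measured by Pearson's r over the 8 libraries after the mean of each group was subtracted, as a description without a p-value. This measure leaves out the group difference itself. Of the 12230 other genes tested, 33 had r above 0.9 and 33 below -0.9. With only 8 libraries, values this extreme also arise by chance among so many genes. The number to be had by chance was not worked out, and a link of the genes below to Npas2 was not tested. Highest were Zfyve9 (r = 0.96), Ap1b1, Kbtbd4 and Polg (r = 0.95 each), and lowest were Dnajc15 and Fitm2 (r = -0.97 each), Tmem168 (r = -0.96) and Glmp (r = -0.95). Polg encodes the mitochondrial DNA polymerase, Ap1b1 a subunit of the AP-1 clathrin adaptor and Fitm2 a lipid droplet protein. In all 8 of these genes the vehicle and PAHSA libraries overlapped. Zfyve9, the gene most like Npas2 inside the groups, was higher in PAHSA on average, by 0.47 log2 CPM.

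Within the clock, by the same measure over 8 libraries, r with Npas2 was 0.64 for Cry2, 0.55 for Clock, 0.53 for Per3, 0.41 for Nr1d2, 0.15 for Cry1, 0.08 for Per1, -0.04 for Nr1d1, -0.31 for Arntl and -0.77 for Per2. The value was below 0 for Arntl, which is known to share REV-ERB control with Npas2. No value was tested against 0, and with 8 libraries each is imprecise. All points come from the same 8 libraries and share their scaling.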

How the data were processed

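Islet RNA of 8 libraries was extracted with a column kit and made into libraries with Nextera XT, which does not mark strand, per the labels' protocols. The deposited values are log2 CPM per Ensembl gene, and the submitters' processing notes name kallisto and limma with no version; the genome build is not given there or in the labels. kallisto divides reads among similar transcripts by a model. From the lowest value of each library, taken as 0 counts plus 0.5, estimated counts were recovered. Between 47.8% and 51.5% of them lay within 0.01 of a whole number, so no count test was run. In the deposited table every gene was above its library's lowest value in at least 5 libraries.

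Symbols and positions came from GENCODE M21 (GRCm38), which held 13669 of the 13725 identifiers. Genes with a mean log2 CPM above 0 (12231) were fitted by limma 3.58.1 in R 4.3.3 (eBayes with trend, two-sided, group only), adjusted by Benjamini-Hochberg over all of them, with a threshold of 0.05. The script was tested on simulated data. All 10 clock genes passed the filter. Members and lists were chosen with earlier results of these data known. Named genes were the members, Dbp, Tef, Rora, Bhlhe40, Bhlhe41, Nfil3 and Ciart, the 3 genes with the smallest p in each of the 4 lists, and the 4 most and 4 least like Npas2 without predicted genes, pseudogenes and RIKEN clones; Thra was named for its overlap with Nr1d1. The result of 1 gene under this rule is not reported here. Cell type markers were summed as CPM. The alternatives were other filters, log2(CPM + 1), quantile and sum scaling, other variance settings, acinar or stellate covariates, a replicate block and leaving out each library. In the block fit, libraries without a same-numbered partner (vehicle replicate 5 and PAHSA replicate 2) do not bear on the difference.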

Additional observations from a re-analysis of the deposited data

How the results depend on the processing

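Npas2 was lower in PAHSA in all 18 alternative fits, from -2.06 with the replicate number as a block to -2.77 with the acinar covariate. Leaving out 1 library at a time gave -2.70 to -2.15. Part of these outcomes was fixed in advance. Fits that changed only the filter on low values or the variance settings kept the main difference of -2.41. Leaving out a library cannot reverse groups that do not overlap. In each of the 18 alternative fits 0 genes passed an adjusted p of 0.05 by limma, with a smallest adjusted p between 0.227 (without PAHSA replicate 4) and 0.986 (stellate covariate). The number at an unadjusted p under 0.05 was 894, and 536 with the stellate covariate. No scaling moved the median of all genes by over 0.1. Same-numbered libraries did not deviate together (r = -0.02 in each of 3 pairs), so the numbers were not taken to pair them. Differences in the block fit rest on these 3 pairs, since vehicle replicate 5 and PAHSA replicate 2 have no partner. Like every other fit, the block fit called 0 genes.

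Of the clock genes, Npas2, Arntl, Per1, Per3 and Cry2 kept their sign in all 18 fits, and Cry1 changed it in 7, Nr1d2 in 5, Clock in 3 and Per2 and Nr1d1 in 1 each. The 18 include the fits that changed only the filter or the variance settings, in which no sign could change. Among the other named genes the sign changed with the acinar covariate for Nfil3 (-0.31) and Ciart (-0.30), with the stellate covariate for Bhlhe41 (-0.35) and Junb (0.036) and with the block for Bhlhe41 (-0.044). It also changed without 1 library for Bhlhe41 (-0.095 to 0.24), Nfil3 (-0.13 to 0.16) and Ciart (-0.11 to 0.40). The causes were not tested. At 84 to 232 estimated counts, Npas2 had a relatively larger counting error in PAHSA than in vehicle. Its SD between libraries was alike, at 0.68 in PAHSA and 0.67 in vehicle. With 4 libraries a group, the median 95% interval of a difference reached 0.55 to either side over all genes tested. Over the 10 clock genes it reached 0.69.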
